A study of Mus musculus with 12 samples.

Results

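The genes of cholesterol synthesis and cholesterol transport were examined as a set of 28 in cultured mouse oligodendrocyte precursor cells (OPCs). They were chosen by gene symbol, for their place in the pathway, among the 55536 genes for which reads were summed, and all 28 were among the 18995 genes that passed a filter on low counts and were tested. The set holds 18 enzymes of synthesis, 4 genes that control the pathway (Insig1, Srebf1, Srebf2 and Scap) and 6 genes of sterol transport and of its control by liver X receptors (LXR). Bulk RNA-seq was done on 12 libraries in 4 groups of 3 replicates: no treatment (Ctr), the EZH2 inhibitor EPZ011989 (EZH2i; 4 days at 1.5 μM, renewed each 48 h), IFN-γ (100 ng/ml during the final 6 h), and both treatments. EZH2 is the methyltransferase of the Polycomb complex PRC2, and the question was which genes change when it is inhibited in OPCs with or without this cytokine. All groups grew in the same proliferation medium with PDGF-AA and bFGF.

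Cells came from crosses of Sox10:Cre mice (C57BL/6j) with RCE:LoxP(EGFP) reporter mice (mixed C57BL/6xCD1), in which EGFP marks cells that have expressed the oligodendroglial transcription factor Sox10. Brains of several pups of P4 to P6 were pooled, and replicates came from different litters. Cells were taken by sorting for GFP or by magnetic beads against CD140a, and which of these was used for each library is not given in the sources used here. A label tag names a mouse model of autoimmune encephalomyelitis, although the cells came from pups. The reporter marks more than 1 stage of the lineage, so the bulk values cannot tell fewer cells of a type from less RNA per cell.

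Cholesterol is built from acetyl-CoA. Mevalonate made from it is turned into isoprenoid units, these are joined to squalene, squalene is closed to lanosterol, and a chain of late enzymes turns lanosterol into cholesterol. When sterols in the endoplasmic reticulum fall, SCAP carries the SREBP transcription factors to the Golgi for cleavage and they raise the transcription of most of these enzymes, whereas INSIG1 holds SCAP back when sterols are plentiful. LXR proteins are activated by oxysterols and raise the genes of cholesterol export. Cells of the oligodendrocyte lineage make much of their own cholesterol, which is a main constituent of myelin.

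Library totals lay between 17403896 counts (Ctr replicate 2) and 66546017 (median 33625880), so the shallowest library is the least precise for genes with few reads. The interferon response genes Irf1 and Gbp2 were called higher in both comparisons with IFN-γ and the Polycomb-silenced Hoxd8 and Tcf24 in both comparisons with EZH2i, as their labels have it. The summed level of 6 OPC markers was 6108 to 6952 CPM (read counts scaled to library size with TMM factors) in Ctr, 5582 to 5709 with EZH2i, 4214 to 5708 with IFN-γ and 3837 to 4555 with both. Pdgfra and Cspg4, 2 of these 6, were called lower in both comparisons with IFN-γ. The summed level of oligodendrocyte markers such as Mbp and Mog was 1282 to 1559.9 CPM in Ctr, 705 to 976 with EZH2i, 1217 to 1451 with IFN-γ and 654 to 1107 with both. Of 5 tested, 0 were called in any comparison by edgeR, with 2 at an unadjusted p under 0.05 for EZH2i and 3 for EZH2i with IFN-γ present. Astrocyte markers such as Aqp4 summed to 810 to 1431.5 CPM in Ctr and 1112 to 2037 with EZH2i. With IFN-γ their sum was 644 to 1625 CPM, and with both 1029.5 to 2137. These markers were highest in replicate 3 of every group, and 0 of 6 were called. Microglial markers summed to at most 1.66 CPM, with C1qa at 0 in all libraries. The neuronal sum was 16.1 to 19.3 CPM in Ctr, 30.5 to 49.4 with EZH2i, 18.0 to 30.0 with IFN-γ and 34.8 to 62.8 with both, and its Stmn2 and Syt1 were called higher with IFN-γ in both comparisons and Stmn2 also with EZH2i in IFN-γ-treated cells. In the 2 EZH2i comparisons 4 and 5 of the 6 neuronal markers had an unadjusted p under 0.05. With IFN-γ the neuronal markers did not move together. The log2 fold change was positive for 4 of the 6 without the inhibitor (lowest -0.49). In inhibitor-treated cells it was positive for 3 of the 6 (lowest -0.47). Endothelial markers summed to 13.8 to 20.9 CPM in Ctr and 25.0 to 39.8 with EZH2i. Their sum was 12.9 to 19.4 CPM with IFN-γ and 20.8 to 36.3 with both, and 0 were called. In both comparisons the endothelial sums with EZH2i lay above those without it. Mural and leptomeningeal markers summed to at most 3.78 CPM, with Lum called higher with IFN-γ. These values stand beside all results below, and their part in the results was not tested.

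The pathway was transcribed in every group. In TPM, which corrects for transcript length and so allows levels of different genes to be compared, the highest median over the 12 libraries was that of Hmgcs1 (233.6 TPM, range 170.2 to 309.1), whose product joins acetoacetyl-CoA with acetyl-CoA at the entry of the pathway. Fdps, which makes farnesyl pyrophosphate, followed at 132.0 TPM, and then the sterol C4 oxidase Msmo1 at 89.5 TPM. From Insig1 (67.2 TPM) down to Fdft1 (42.8 TPM) 11 genes lay close together, and the ranges of neighbours in this order overlapped. Among the enzymes, the sterol isomerase Ebp was lowest (10.7 TPM, range 6.20 to 13.6). The sterol carrier Stard4 stood at 8.43 TPM. Only Mylip, the ubiquitin ligase that LXR uses against lipoprotein receptors (0.890 TPM), and Nr1h3, which encodes LXRα (0.633 TPM, from 12 to 87 counts a library), lay below it, with ranges that did not reach its own. Nr1h2, which encodes LXRβ, had 25.1 TPM.

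**Figure D1:**
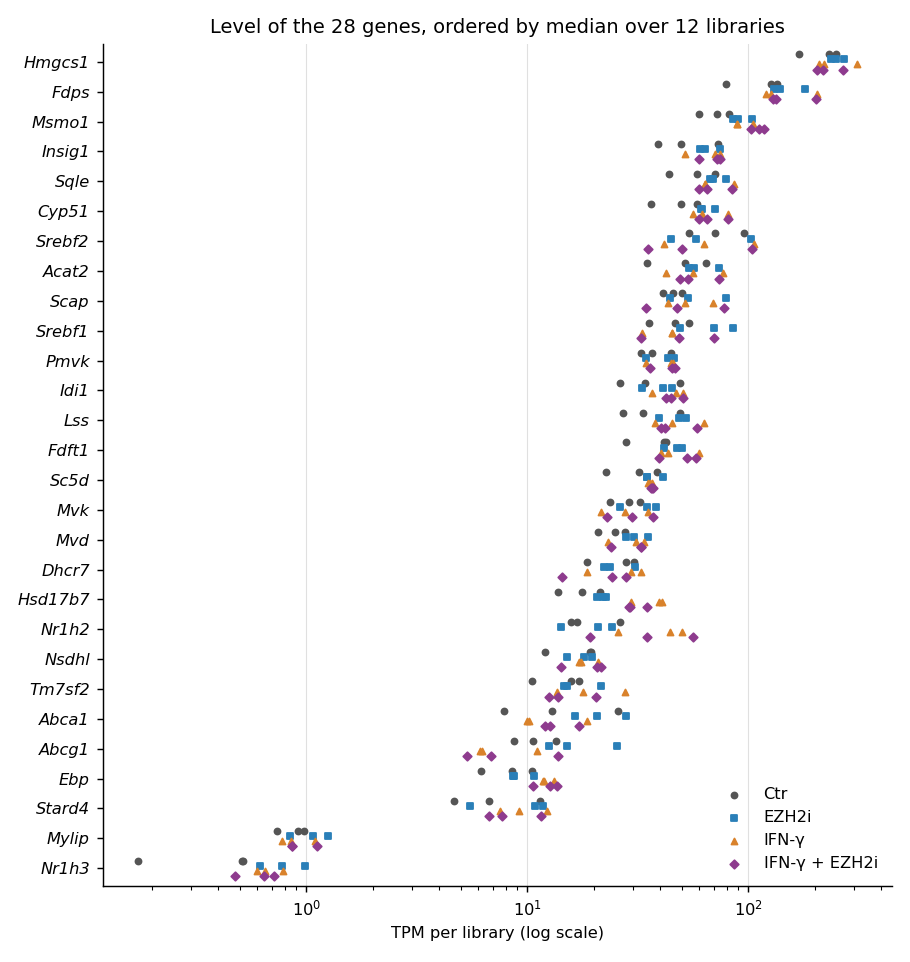
TPM of each of the 28 genes in each of the 12 libraries (log scale, points coloured by group), ordered by the median over all libraries. Hmgcs1 lies at the top between 170.2 and 309.1 TPM, and only Mylip and Nr1h3 lie near 1 TPM or below.

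Each treatment was compared with and without the other, with edgeR's quasi-likelihood test over all tested genes and Benjamini-Hochberg adjustment. A gene was called when its adjusted p was under 0.05. The 4 comparisons share groups (EZH2i versus Ctr and IFN-γ versus Ctr have the same Ctr libraries, for example), so their values are set side by side without a test of likeness. With EZH2i in the absence of IFN-γ, 0 of the 28 genes were called by edgeR or by DESeq2, against 0.405% and 1.33% of all genes tested, and 0 had an unadjusted p under 0.05, against 7.04%. With EZH2i in the presence of IFN-γ, edgeR called 0 and DESeq2 called 1 (Msmo1), against 0.353% and 1.12%, and 1 had an unadjusted p under 0.05, against 6.42%. IFN-γ without the inhibitor raised 2 genes, Hsd17b7 and Ebp (7.14% of the set, against 6.65% of all genes called higher), and lowered 0 (against 2.1%), while 4 had an unadjusted p under 0.05 (against 19%). IFN-γ in inhibitor-treated cells raised 3, Hsd17b7, Ebp and Msmo1 (10.7%, against 5.9%), and lowered 0 (against 2.17%), while 8 had an unadjusted p under 0.05 (against 17.7%).

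Groups of 3 that do not overlap give a count that needs no model. For EZH2i versus Ctr, 0 genes of the set had all treated libraries above all Ctr libraries, against 7.37% of all genes, and 1 (Dhcr7) had them all below, against 5.34%. In IFN-γ-treated cells EZH2i left 1 gene (Msmo1, 3.57% of the set) without overlap on the higher side, against 6.08%, and 0 on the lower side, against 4.26%. With IFN-γ alone the groups did not overlap for 4 higher genes (Hsd17b7, Ebp, Msmo1 and Nr1h2, 14.3%), against 13.5%, and for 0 lower genes, against 9.52%. With IFN-γ added to EZH2i they did not overlap for 7 higher genes (Pmvk, Idi1, Cyp51, Ebp, Hsd17b7, Msmo1 and Nr1h2, 25%), against 11.8%, and for 1 lower gene (Abcg1), against 9.66%.

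Libraries given both treatments deviated from their group mean together with the same-numbered libraries of the IFN-γ and of the EZH2i group, so these comparisons were also fitted with the replicate number as a block. Block p-values printed beside genes below are for these comparisons only. Those against Ctr, where pairing was weaker, are given in the closing section. In that fit the effect of EZH2i in IFN-γ-treated cells included 1 higher gene of the set (Msmo1, adjusted p = 0.0211 by edgeR) and 0 lower, against 3.11% and 0.827% of all genes. For IFN-γ added to EZH2i the block gave 8 higher (Pmvk, Idi1, Fdft1, Cyp51, Msmo1, Hsd17b7, Ebp and Nr1h2) and 3 lower genes (Srebf1, Abca1 and Abcg1), against 11% and 8.3% of all genes.

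**Figure D2:**
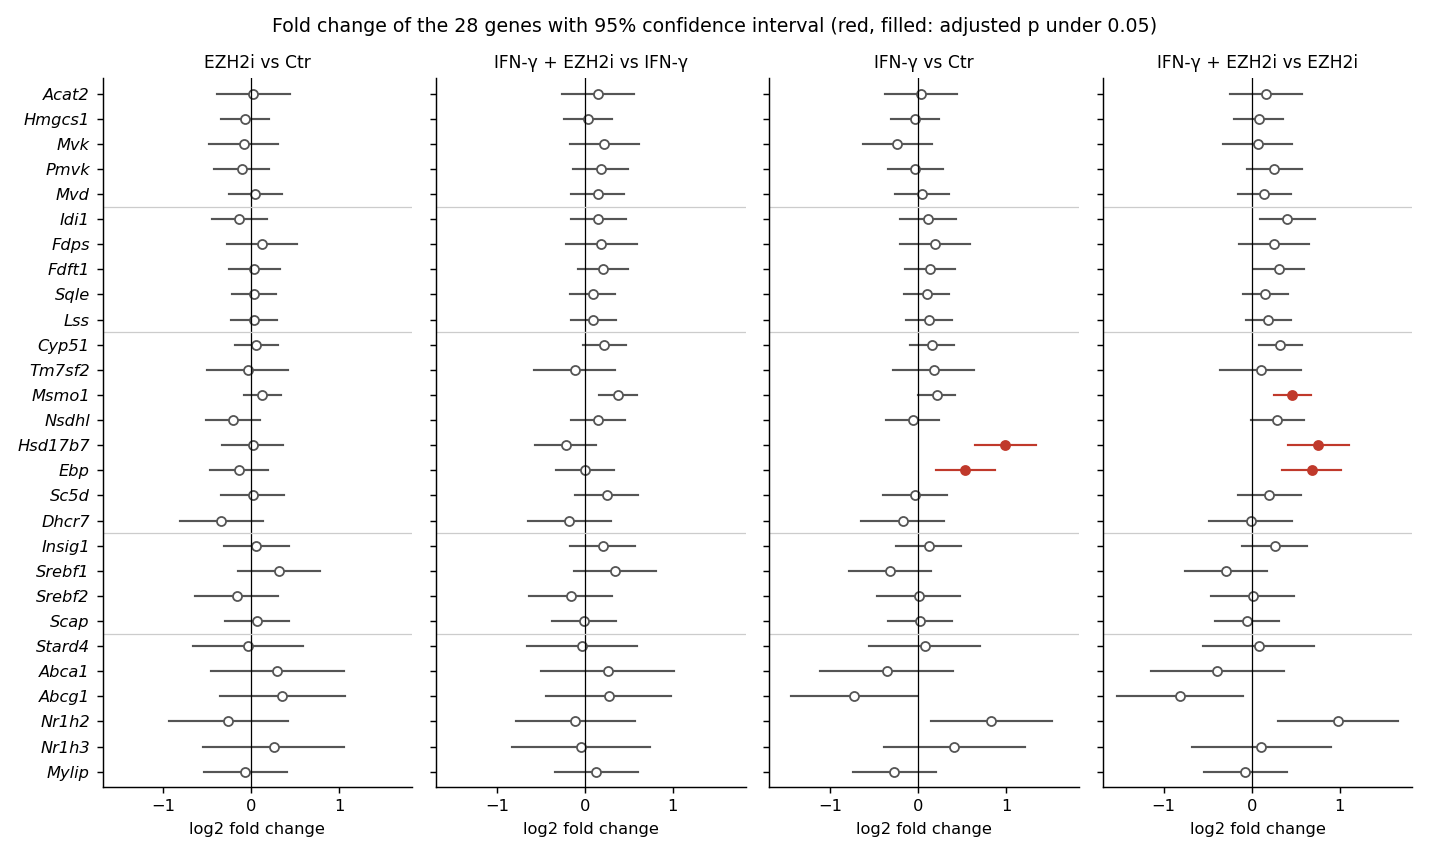
Log2 fold change of each of the 28 genes in the 4 comparisons (points) with the 95% confidence interval of the edgeR fit (bars), grouped by step of the pathway, with filled red points for genes with an adjusted p under 0.05. Hsd17b7 and Ebp are red in both IFN-γ panels and Msmo1 in the panel of IFN-γ in inhibitor-treated cells, and no point is red in the EZH2i panels.

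Summed over the 18 enzymes, the share of reads was alike in Ctr and EZH2i and highest with both treatments, and this sum was not tested. It was 2977, 3047 and 2984 CPM in the 3 Ctr libraries, 2869.7, 3105 and 2929.8 with EZH2i, 2949, 3495 and 3070.4 with IFN-γ and 3184, 3756 and 3395 with both. The libraries given both treatments lay above all Ctr and EZH2i libraries, and the IFN-γ libraries overlapped all other groups. As a ratio to the Ctr mean of 3003 ± 38.3 CPM (SD, n = 3), the sum was 0.989 with EZH2i, 1.06 with IFN-γ and 1.15 with both. The deposited TPM gave 1.215, 1.235 and 1.23, but there the median log2 ratio of all tested genes was itself shifted by 0.28, 0.19 and 0.06, and relative to it the enzymes lay at 0.00, 0.11 and 0.24. The median log2 fold change of the 18 was 0.01 for EZH2i, 0.15 for EZH2i in IFN-γ-treated cells, 0.10 for IFN-γ, and 0.23 for IFN-γ in inhibitor-treated cells, where 17 of 18 were positive beside 50.2% of all genes. The small medians moved with single libraries: that for IFN-γ was 0.01 without IFN-γ replicate 2, 0.06 without Ctr replicate 2 and 0.17 without IFN-γ replicate 1. That for EZH2i in IFN-γ-treated cells was 0.06 without replicate 2 of both treatments, 0.09 without IFN-γ replicate 1 and 0.10 without IFN-γ replicate 3. The median for EZH2i ran from -0.07 to 0.02 over the alternatives, and that for IFN-γ in inhibitor-treated cells from 0.17 to 0.29. For EZH2i alone the 95% intervals of the 18 ran from -0.82 to 0.52.

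The first 5 enzymes carry acetyl-CoA to isopentenyl pyrophosphate: Acat2 (thiolase), Hmgcs1 (HMG-CoA synthase), Mvk and Pmvk (kinases of mevalonate and phosphomevalonate) and Mvd (the decarboxylase). None of the 5 was called in any comparison by edgeR without the block, with 0 at an unadjusted p under 0.05, and DESeq2 called 0. Hmgcs1 stood at 998 ± 41.4 CPM in Ctr, 949.7 ± 47.2 with EZH2i, 976 ± 119.6 with IFN-γ and 1001.8 ± 94.0 with both (SD, n = 3), so that its groups overlapped throughout. The median log2 fold change of the 5 was -0.07 for EZH2i, 0.15 for EZH2i with IFN-γ present, -0.03 for IFN-γ and 0.14 for IFN-γ with EZH2i present. Pmvk was the one among them whose groups separated when IFN-γ was added to EZH2i, at 48.6 ± 6.33 and 58.0 ± 3.10 CPM, with a log2 fold change of 0.26 (SE 0.14, edgeR adjusted p = 0.427, and 0.0324 with the replicate block). With the block on only the 6 libraries compared, Pmvk was not called.

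The next 5 lead from isopentenyl pyrophosphate to lanosterol: Idi1 (isomerase), Fdps, Fdft1 (squalene synthase), Sqle (squalene epoxidase) and Lss (lanosterol synthase). Again 0 were called in the fit without the block or by DESeq2. In inhibitor-treated cells given IFN-γ all 5 fold changes were positive (median 0.25), and Idi1 and Fdft1 had an unadjusted p under 0.05. Idi1 went from 135 ± 20.3 to 179 ± 15.9 CPM without overlap (log2 0.40, SE 0.14, edgeR adjusted p = 0.134, and 0.00208 with the block). Fdft1 went from 154 ± 13.3 to 190.0 ± 22.6 CPM, with overlap (log2 0.31, SE 0.13, edgeR adjusted p = 0.236, and 0.0135 with the block). The other comparisons gave medians of 0.03 for EZH2i, 0.16 for EZH2i with IFN-γ present and 0.12 for IFN-γ. Of the Lss counts, 56.3% came from protein-coding transcripts, so its value also holds reads given to other transcripts of the gene.

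In the reported edgeR fit without the block, the genes called were all among the 8 late enzymes that turn lanosterol into cholesterol. These are Cyp51, Tm7sf2, Msmo1, Nsdhl, Hsd17b7, Ebp, Sc5d and Dhcr7. DESeq2 and the block also called genes outside these steps. Promoter sequences of the 3 called genes are shown here for their context, together with that of Hmgcs1, the most abundant of the enzymes. Each runs from 250 bases before to 50 bases after the transcription start in RefSeq on GRCm38.p6, on the gene's own strand, and 23 of the 28 genes had an entry (all but Stard4, Fdps, Sqle, Fdft1 and Abcg1). Capitals mark matches on either strand to a sterol regulatory element (SRE, TCACNCCAC), the NF-Y box CCAAT, an interferon-stimulated response element (ISRE, GAAANNGAA) or a γ-activated site (GAS, TTCNNNGAA).
Hsd17b7, chr1:169969156-169969455, minus strand: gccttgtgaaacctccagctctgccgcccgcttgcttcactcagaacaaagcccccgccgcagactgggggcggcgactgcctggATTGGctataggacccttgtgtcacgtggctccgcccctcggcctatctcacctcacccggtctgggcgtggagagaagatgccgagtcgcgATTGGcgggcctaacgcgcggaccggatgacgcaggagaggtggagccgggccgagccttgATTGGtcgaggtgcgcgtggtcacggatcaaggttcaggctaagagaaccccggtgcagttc
Ebp, chrX:8193463-8193762, minus strand: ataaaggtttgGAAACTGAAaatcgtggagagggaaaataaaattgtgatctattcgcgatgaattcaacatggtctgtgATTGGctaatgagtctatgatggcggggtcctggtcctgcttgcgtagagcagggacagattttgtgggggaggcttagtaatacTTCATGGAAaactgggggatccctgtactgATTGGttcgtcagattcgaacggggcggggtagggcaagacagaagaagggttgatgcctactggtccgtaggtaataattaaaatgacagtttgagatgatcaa
Msmo1, chr8:64733529-64733828, minus strand: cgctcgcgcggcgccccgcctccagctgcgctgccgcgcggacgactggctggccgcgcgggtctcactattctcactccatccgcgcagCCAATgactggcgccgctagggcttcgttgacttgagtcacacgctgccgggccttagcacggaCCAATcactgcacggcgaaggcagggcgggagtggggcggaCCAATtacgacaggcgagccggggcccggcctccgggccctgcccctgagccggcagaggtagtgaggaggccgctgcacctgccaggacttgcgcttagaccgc
Hmgcs1, chr13:119690101-119690400, plus strand: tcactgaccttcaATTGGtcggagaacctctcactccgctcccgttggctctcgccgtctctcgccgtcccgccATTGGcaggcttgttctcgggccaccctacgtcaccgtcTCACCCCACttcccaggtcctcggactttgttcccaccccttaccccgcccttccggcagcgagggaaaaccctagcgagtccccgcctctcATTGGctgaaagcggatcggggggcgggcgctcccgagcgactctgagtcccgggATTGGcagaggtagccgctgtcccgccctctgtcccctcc

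In these windows Hsd17b7 had CCAAT boxes at -165, -73 and -12 from the start, Msmo1 at -160, -96 and -55, Ebp at -170 and -55, and Hmgcs1 at -237, -176, -45 and 10. The 23 genes had 30 windows in all, since some have several starts. A CCAAT box was found in 19 of these 30 windows (18 genes), and in 37.4% of the 32851 windows of all genes. The SRE letters were found in 1 of the 30 windows, that of Hmgcs1, at -137 (1.24% of all windows). Among the 3 genes called with IFN-γ, the ISRE and GAS letters were both in Ebp, at -239 and -85, and neither Hsd17b7 nor Msmo1 held them in this window. Each was in 1 of the 30 windows and in 8.56% and 8.3% of all windows. The GC box GGGCGG was in 23 of the 30 windows (35.7% of all windows), the E-box CACGTG in 7 (7.15%) and the nuclear receptor core motif AGGTCA in 5 (16.3%). ISRE and GAS share letters and were counted separately, as were motifs that overlap each other. Only these letters were searched, and only in these windows, so variants of a motif and sites elsewhere were not counted. The matches describe the letters and do not show binding.

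Hsd17b7 (chromosome 1, 169949535 to 169969241, minus strand) encodes the 3-ketosteroid reductase that completes the removal of the C4 methyl groups. Its level was 55.1, 51.8 and 69.0 CPM in Ctr, 54.9, 57.4 and 65.6 with EZH2i, 91.8, 125 and 132 with IFN-γ, and 90.7, 101 and 108 with both. All 6 libraries with IFN-γ lay above all 6 without it, and the inhibitor groups overlapped their controls. Hsd17b7 rose 1.99-fold with IFN-γ (95% interval 1.56 to 2.53, log2 0.99, SE 0.16, edgeR adjusted p = 0.00158) and 1.69-fold in inhibitor-treated cells (1.32 to 2.15, log2 0.75, SE 0.16, edgeR adjusted p = 0.0102, and 0.000117 with the replicate block). Without EZH2i replicate 2 the second adjusted p was 0.0502, which is the only one of 22 alternative fits that lost this call, and the first held in 22 of 22. The difference between these effects was -0.24 on the log2 scale (95% interval -0.72 to 0.25), with an adjusted p of 0.9999 by edgeR.

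Ebp (chromosome X, 8185329 to 8193512, minus strand) encodes the isomerase that moves the sterol C8 double bond. Its level was 17.0, 17.3 and 13.2 CPM in Ctr, 16.8, 13.7 and 12.5 with EZH2i, 24.1, 22.8 and 21.8 with IFN-γ, and 23.7, 24.1 and 21.1 with both. As for Hsd17b7, every library with IFN-γ lay above every library without it. Ebp rose 1.45-fold with IFN-γ (log2 0.54, SE 0.15, edgeR adjusted p = 0.0496) and 1.60-fold in inhibitor-treated cells (log2 0.68, SE 0.15, edgeR adjusted p = 0.0145, and 0.000334 with the block). The first of these calls sat at the threshold: it held in 6 of 22 alternative fits, with adjusted p from 0.00188 to 0.253, and among the 12 fits that each left out a library it held only without EZH2i replicate 1. With length-scaled TPM in place of counts its log2 fold change was 0.35. The second call held in 19 of 22 and was lost without EZH2i replicate 2 (adjusted p = 0.0668), EZH2i replicate 3 or replicate 2 of both treatments.

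Msmo1 (chromosome 8, 64718139 to 64733792, minus strand) begins the removal of the C4 methyl groups. Its level was 172, 163 and 168 CPM in Ctr, 193, 169.9 and 186 with EZH2i, 183, 201 and 198 with IFN-γ, and 237, 258 and 260.4 with both. The 3 libraries with both treatments were the highest of the 12, with no overlap with any other group. In inhibitor-treated cells Msmo1 rose 1.38-fold with IFN-γ (log2 0.46, SE 0.10, edgeR adjusted p = 0.00988), a call that held in 18 of 22 alternative fits (adjusted p from 4.686e-05 to 0.0784). It was lost without EZH2i replicate 2 (adjusted p = 0.0608), without replicate 3 of both treatments, with protein-coding transcripts only and with only the 6 libraries compared. IFN-γ without the inhibitor gave a log2 fold change of 0.21 (SE 0.10, edgeR adjusted p = 0.274), also without overlap. In IFN-γ-treated cells EZH2i gave a 1.30-fold higher level in 3 of 3 same-number pairs (log2 0.38, SE 0.10, unadjusted p = 0.00220 and adjusted p = 0.201 by edgeR), which passed the threshold with the replicate block (adjusted p = 0.0211). The test of the difference between the effects of one treatment with and without the other gave 0.25 (SE 0.14, 95% interval -0.05 to 0.55, edgeR unadjusted p = 0.0893, adjusted p = 0.9999). Of the Msmo1 counts, 70.7% came from protein-coding transcripts.

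Dhcr7 (chromosome 7, 143823145 to 143848410, plus strand), which makes cholesterol from 7-dehydrocholesterol in the last step, had the smallest p of the set for EZH2i alone. Its level was 70.3, 80.8 and 67.1 CPM in Ctr, 51.3, 63.9 and 57.1 with EZH2i, 70.0, 72.9 and 49.8 with IFN-γ, and 76.4, 54.9 and 39.5 with both. The EZH2i libraries lay below the Ctr libraries without overlap, whereas the range with both treatments covered most of the values of the other groups. The log2 fold change with EZH2i was -0.34 (SE 0.22, 95% interval -0.82 to 0.14, unadjusted p = 0.145 and adjusted p = 0.900 by edgeR).

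The other late enzymes were not called in the fit without the block. Cyp51, the lanosterol 14α-demethylase, stood at 263 ± 7.08 CPM in Ctr, 274 ± 9.38 with EZH2i, 294 ± 24.0 with IFN-γ and 343 ± 41.7 with both, and its log2 fold change for IFN-γ in inhibitor-treated cells was 0.32 (SE 0.11, edgeR adjusted p = 0.126, and 0.0133 with the block). Nsdhl, a C4 decarboxylase, stood at 42.6 ± 5.45 CPM with EZH2i and 52.2 ± 8.03 with both, with overlap. Sc5d (the C5 desaturase) and Tm7sf2 (a C14 reductase) overlapped in all 4 comparisons. For the 8 late enzymes the median log2 fold change was -0.02 for EZH2i, 0.08 for EZH2i with IFN-γ present, 0.17 for IFN-γ and 0.31 for IFN-γ with EZH2i present.

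**Figure D3:**
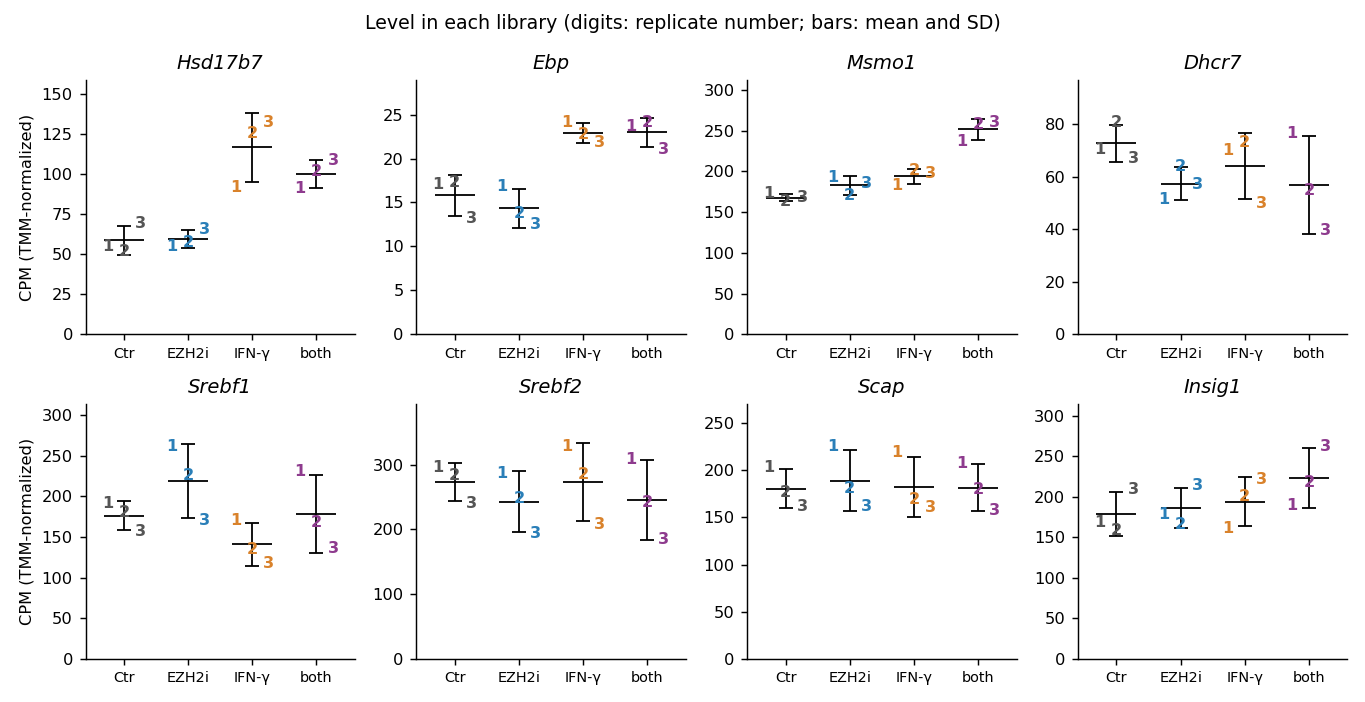
TMM-normalized CPM of Hsd17b7, Ebp, Msmo1, Dhcr7, Srebf1, Srebf2, Scap and Insig1 in each library, from 0, with digits for the replicate number and bars for the mean and SD of 3 replicates. For Hsd17b7 and Ebp the 6 libraries with IFN-γ lie above the 6 without it, and for Srebf1, Srebf2 and Scap replicate 1 is the highest and replicate 3 the lowest in each group.

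None of the 4 control genes was called in any comparison by edgeR without the block or by DESeq2, and 0 had an unadjusted p under 0.05. Srebf2 encodes SREBP-2, the main activator of the synthesis enzymes. Its level was 295, 284 and 239 CPM in Ctr, 287, 248 and 193 with EZH2i, 328, 284 and 208 with IFN-γ, and 308, 241 and 184 with both, which is 1 order of replicates in every group. The log2 fold change with IFN-γ was 0.00 (SE 0.22), and that with EZH2i -0.17 (SE 0.22).

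Srebf1 encodes SREBP-1, which acts mainly on fatty acid synthesis. Its level was 192, 180.4 and 157 CPM in Ctr, 262, 225 and 171 with EZH2i, 170.4, 135 and 117 with IFN-γ, and 231, 168 and 136 with both. The groups overlapped in each of the 4 comparisons. Its log2 fold changes were 0.31 and 0.34 for EZH2i without and with IFN-γ and -0.32 and -0.30 for IFN-γ without and with EZH2i (SE 0.21 each), with the edgeR adjusted p between 0.486 and 0.953. With the replicate block the last of these, in libraries that the numbers pair, had an adjusted p of 0.0321 by edgeR. EZH2i was higher in 3 of 3 same-number pairs in both comparisons, and IFN-γ in 0 of 3.

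Scap, the escort of the SREBPs, was at 203, 177 and 162 CPM in Ctr, 225, 180.3 and 162 with EZH2i, 219, 169 and 160.1 with IFN-γ, and 207, 179.9 and 158 with both. These groups almost coincided, with log2 fold changes between -0.06 and 0.07 (SE 0.17). Insig1, which retains SCAP and is itself a target of the SREBPs, was at 168.5, 159 and 209.5 CPM in Ctr, 178, 166 and 214 with EZH2i, 161, 200.1 and 221 with IFN-γ, and 189, 218 and 262 with both. Replicate 3 was the highest in each group, and the log2 fold change for IFN-γ in inhibitor-treated cells was 0.26 (SE 0.17, edgeR adjusted p = 0.529).

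Of the 6 transport and LXR genes 0 were called in the reported edgeR fit, which had no block. Nr1h2 and Abcg1 are described by library because of their values, after these were seen. Nr1h2 was at 47.7, 44.3 and 30.0 CPM in Ctr, 36.4, 38.2 and 27.3 with EZH2i, 94.9, 72.5 and 49.4 with IFN-γ, and 95.1, 66.0 and 39.9 with both. In both comparisons the libraries with IFN-γ lay above their controls, and replicate 3 was the lowest in every group. The log2 fold change was 0.83 without EZH2i (SE 0.31, edgeR adjusted p = 0.154) and 0.98 with it (SE 0.31, edgeR adjusted p = 0.0887). The latter passed the threshold with DESeq2 (adjusted p = 0.0376) and with the replicate block in edgeR (adjusted p = 0.000265). It passed in 5 of 22 alternative fits, among them edgeR with no filter on low counts and edgeR without replicate 3 of both treatments. Of its counts, 79.2% came from protein-coding transcripts.

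Abcg1, a pump that exports cholesterol to lipoproteins and a target of LXR, was at 81.2, 46.2 and 59.8 CPM in Ctr, 107, 63.7 and 67.8 with EZH2i, 55.1, 25.5 and 32.1 with IFN-γ, and 60.8, 32.9 and 42.0 with both. Replicate 1 was the highest in every group, and in both comparisons each library with IFN-γ lay below the same-numbered library without it. The log2 fold change with IFN-γ was -0.74 without EZH2i (SE 0.33, edgeR adjusted p = 0.246) and -0.82 with it (SE 0.33, edgeR adjusted p = 0.199, and 3.199e-05 with the block). Abca1, the other export pump under LXR, was at 217 ± 85.9 CPM in Ctr, 267 ± 77.0 with EZH2i, 169.8 ± 74.8 with IFN-γ and 203 ± 56.6 with both. Its level was highest in replicate 3 of every group, as were the astrocyte markers, and with the block its adjusted p for IFN-γ in inhibitor-treated cells was 0.0312 by edgeR. Stard4, Mylip and Nr1h3 overlapped between the groups of every comparison, and Nr1h3 had too few counts for changes under its SE of 0.36 to 0.37 to be seen.

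**Figure D4:**
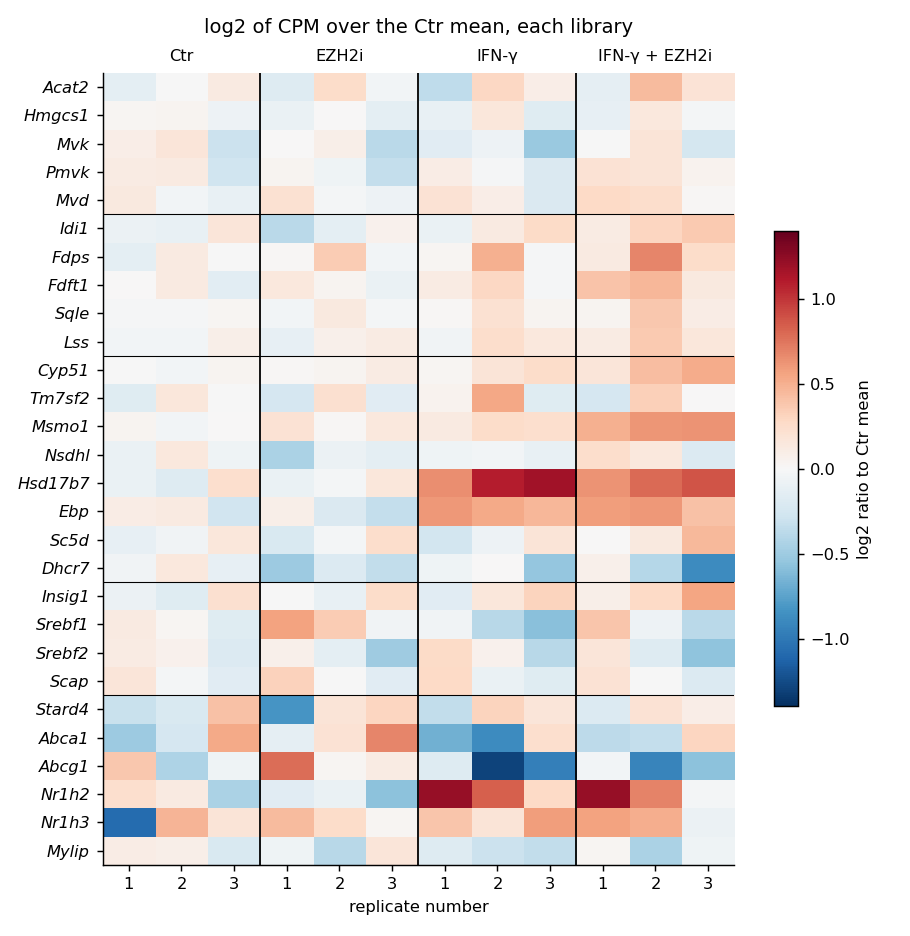
Log2 ratio of the CPM in each of the 12 libraries to the Ctr mean for the 28 genes (rows, ordered by step of the pathway, with lines between the steps), with columns by group and replicate number. Hsd17b7, Ebp and Nr1h2 are above 0 in nearly all columns with IFN-γ, Abcg1 is below 0 there, and most other enzymes stay near 0.

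The test of whether the effect of one treatment differed with the other called 0 of the 28 genes, with 0 at an unadjusted p under 0.05 in edgeR and 0 called by DESeq2. Over all genes tested, 0% and 0.669% passed these edgeR thresholds and 0% were called by DESeq2. The estimates of the difference were positive for 22 of the 28 genes and 16 of the 18 enzymes, with a median of 0.12 and 0.16, beside 47.0% of all genes. Over the alternatives 12 to 17 of the 18 enzymes were positive (12 without replicate 2 of both treatments), with a median from 0.11 without that library to 0.23 without IFN-γ replicate 2. For the 28 genes the 95% intervals ran from -1.42 to 1.11.

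Genes next to the pathway, taken from fixed symbol lists, were read in the same fit. Of 13 genes of fatty acid synthesis 0 were called in any comparison. Their medians were -0.04 for EZH2i, 0.03 for EZH2i with IFN-γ present, -0.18 for IFN-γ and -0.09 for IFN-γ with EZH2i present. With IFN-γ alone 6 of the 13 lay below Ctr without overlap (against 9.52% of all genes). With IFN-γ added to EZH2i 0 of the 13 lay below EZH2i alone without overlap (against 9.66%). The calls that follow stand beside 6.65% of all genes called higher with IFN-γ, and 5.9% higher and 2.17% lower with IFN-γ in inhibitor-treated cells. Of 18 other genes of sterol handling, Nfyb, a subunit of the factor NF-Y that binds CCAAT, rose with IFN-γ (log2 0.80, SE 0.13, edgeR adjusted p = 0.00148) and with IFN-γ in inhibitor-treated cells (0.92, SE 0.13, edgeR adjusted p = 0.000500). The sterol exporter Abcg4 fell in the latter comparison (-0.94, SE 0.22, edgeR adjusted p = 0.0202). Among 6 oxysterol and sterol catabolic enzymes, Ch25h, which makes the LXR ligand and SREBP inhibitor 25-hydroxycholesterol, rose in both IFN-γ comparisons. It had 0 to 8 counts in every library without IFN-γ, and its level was 18.0, 24.9 and 10.9 CPM with IFN-γ and 7.73, 17.1 and 13.5 CPM with both (edgeR adjusted p = 5.345e-06 and 6.345e-06).

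Several genes of the set overlap another annotated gene, and whether the counting used strand is not given in the sources used here. Mvd, Idi1, Fdps, Fdft1, Lss, Cyp51, Tm7sf2, Hmgcs1, Srebf1, Scap, Abcg1 and Nr1h3 are affected, and Hsd17b7, Ebp, Msmo1 and Dhcr7 are not. Their reads and those of the partner could not be told apart without it.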

How the data were processed

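Total RNA of the 12 libraries was prepared with a stranded kit after rRNA removal and sequenced. Per the submitters' processing notes the tools included Salmon 0.8.2, STAR and DESeq2, with builds mm10 and GRCm38, and the strand setting of the counting is not given in the sources used here. The authors deposited, for each library, Salmon's estimated count of each transcript before any scaling. They also deposited TPM (the same reads per effective length, scaled to a constant sum per library) and the transcript lengths in bases. Their 2 tables of DESeq2 comparisons (base mean, log2 fold change, SE, statistic, p-value and adjusted p-value) were not used.

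Estimated counts were summed per gene (all 141862 transcripts matched GENCODE vM21, giving 55536 genes) and rounded. Analyses used R 4.3.3 and edgeR 4.0.16: TMM factors, the default filter on low counts (18995 genes) and the quasi-likelihood test, in a model of all 12 libraries that held only the group. Contrasts gave each treatment without and with the other and their interaction, and p-values were adjusted over all genes tested with the Benjamini-Hochberg method at 0.05. Confidence intervals are 95%. The fits were tested on simulated data. Chi-square of 32.84 to 182.2 per gene between replicates of a group showed no library repeated within a group. Libraries of different groups were not compared in this way. Depth differed 3.82 times between libraries.

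The 28 genes, the neighbouring lists and the markers were chosen with earlier results of these data known. A marker and a treatment check gene of these lists are not reported here. The rule for values in every library was: each gene past the threshold in a comparison, the gene with the smallest p in each comparison, and the 4 control genes.

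The alternatives tried were RLE factors, DESeq2 1.42.0, no filter on low counts, a stricter filter of 10 counts in all samples, protein-coding transcripts only, length-scaled TPM, a replicate block, removal of mitochondrial and rRNA genes, a fit of just the 6 samples compared, deposited TPM for summed levels, and omission of each library. The block on only 6 samples was added after seeing the data. Deviations from group means of same-numbered libraries correlated at 0.604, 0.493 and 0.642 between IFN-γ and both treatments and at 0.530, 0.496 and 0.621 between EZH2i and both treatments. Between Ctr and EZH2i they were 0.441, 0.0467 and 0.495, and between Ctr and IFN-γ 0.490, 0.0854 and 0.544. Since pairing was accepted where all 3 were over 0.1, numbers were taken to pair libraries only in the comparisons with the group given both. The labels give the same replicate numbers to all groups, and the study states different litters.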

Additional observations from a re-analysis of the deposited data

How the results depend on the processing

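No called value reversed its direction. The number of the 28 genes past the threshold was 0 for EZH2i versus Ctr and for the interaction in all alternatives run, including every fit without 1 library. For EZH2i in IFN-γ-treated cells (0 in the reported fit) it was 1 with DESeq2, 1 with the replicate block, 4 with the block on only the 6 samples compared (Msmo1, Abcg1, Sc5d and Srebf1) and 0 without any 1 library. For IFN-γ versus Ctr (2) it was 1, Hsd17b7, with RLE factors, no filter on low counts, length-scaled TPM, mitochondrial and rRNA genes left out or only the 6 samples compared, and 1 to 2 without 1 library. Ebp was lost without any one of the 12 libraries other than EZH2i replicate 1. For IFN-γ in inhibitor-treated cells (3) it was 11 with the block, 10 with the block on 6 samples (Pmvk lost) and 0 to 4 without 1 library, with 0 reached without EZH2i replicate 2. In the same comparison it was 4 with DESeq2 and with no filter on low counts (Nr1h2 added). With protein-coding transcripts only, and with only the 6 samples compared, it was 2 (Msmo1 lost). Against Ctr, where the pair of replicates 2 correlated below the limit for pairing, the block gave 7 genes for IFN-γ (Hsd17b7, Ebp and Nr1h2 higher, Mvk, Srebf1, Abca1 and Abcg1 lower, with edgeR adjusted p of 0.0308 for Mvk, 0.0183 for Srebf1, 0.0411 for Abca1, 5.830e-05 for Abcg1 and 0.000641 for Nr1h2), 5 with only 6 samples, and 0 for EZH2i. Every Ctr and IFN-γ library correlated best with its own number, which is a hint from the data, and EZH2i replicate 2 did not with Ctr. Among the 28 genes the block changed no other call than those given here and beside the results. Block results for the neighbouring lists and the markers are not given. The ratio of the summed enzymes to Ctr moved with deposited TPM to 1.215 for EZH2i and 1.235 for IFN-γ, where TPM of all genes shifted as well. Of 13 fold changes with an unadjusted p under 0.05, 0 changed sign in an alternative, and of the other 127, 60 did. With 3 libraries a group, changes of the size of the SE given are not resolved, and for Nr1h3 (12 to 87 counts) depth limits the value. Except where an alternative tests fewer samples or genes, the cause was not tested.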
